A study of Mus musculus with 12 samples.

Results

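The genes described here are 35 members of the hypoxia response and of glycolysis, whose RNA was compared between mouse mammary tumors labelled ShcA-null and a NIC tumor pool. They were taken by name: every array probe whose gene name is one of the 35, under its current or an older symbol, was collected, and each gene was represented by its brightest probe. Of the 35 genes, 34 had a probe, out of 27670 gene names on the array, and all 34 were among the 20307 genes tested. Gapdh alone had no probe under its name.

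Hypoxia-inducible factor (HIF) is a pair of an oxygen-regulated alpha subunit and the constant subunit ARNT. When oxygen is plentiful, prolyl hydroxylases of the EGLN family mark the alpha subunit for destruction by VHL. When oxygen is short, HIF accumulates, binds a short core sequence near its targets and raises glucose transporters, nearly all enzymes of glycolysis, pyruvate dehydrogenase kinases and genes of mitophagy, pH control and collagen modification. Mammary tumors often outgrow their vessels, so these genes are commonly read as a record of oxygen supply and of glucose use.

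There were 8 tumors labelled ShcA-null on 12 two-colour oligonucleotide arrays, each hybridised with the RNA of 1 tumor and with the same pooled NIC reference RNA. NIC tumors arise from a transgene that expresses an activated Neu (ErbB2) receptor together with Cre recombinase under a mammary promoter. Tumors labelled ShcA-null and the pool share that transgene, and Cre acts in the cells that express it, so stromal, vascular and immune cells of the tumors would still carry Shc1. The gene Shc1 encodes ShcA, an adaptor between receptor tyrosine kinases and Ras signalling. Which part of Shc1 was deleted, the strain, the ages and the number of tumors in the pool are not given in the sources used here.

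All values below are log2 ratios of tumor over pool within an array, so that 0 is the level of the pool, 1 is a 2-fold higher level in the tumor and a negative value is a lower one. The 8 first arrays carried the tumor RNA in Cy5, read in red. A further array with swapped dyes exists for each of tumors 1 to 4. The mean over the 8 tumors was tested against 0 with limma, and "called" means a Benjamini-Hochberg adjusted p under 0.05 over all genes tested. The pool counts as 1 control sample, so the spread between control tumors is not part of any test. Whether each tumor came from its own mouse is not stated, and p-values thus cover only the spread among the 8 tumor samples, which may be technical.

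The arrays held 43379 gene spots each. The share of gene probes with a spot well above background lay between 63.1% and 77.2% for the tumor RNA and between 68% and 74.3% for the pool. The lowest share for tumor RNA was on the array of tumor 6. Every one of the 34 representative probes passed the background flag on 12 of 12 arrays for either RNA, and none was saturated. Shc1 itself had a mean log2 ratio of 0.12 ± 0.65 (SD, n = 8; limma adjusted p = 0.729), with -1.13 and -0.65 in tumors 2 and 3 and 0.24 to 0.71 in the other six. Since the deleted part of Shc1 is not stated, this probe does not check the label. All 8 mammary luminal markers, among them Krt8, Epcam and Elf5, were well above background on all arrays. All 7 fibroblast, 7 macrophage and 7 endothelial markers were too, so detection alone does not check the labelled tissue.

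The tumor named on a swapped array is in doubt for 3 of the 4. Over 30838 probes, the swapped array labelled tumor 1 correlated best with the first array of tumor 1 (r = 0.44). The one labelled tumor 2 had r = 0.817 with the first array of tumor 3 and 0.142 with that of tumor 2. Likewise the one labelled tumor 3 matched tumor 4 best (0.392, against 0.134 for tumor 3), and the one labelled tumor 4 matched tumor 8 best (0.681, against 0.294 for tumor 4). The means of tumors 2, 3 and 4 below average both arrays as labelled and so may mix tumors. A tumor may then enter more than 1 of the 8 values, while the p-values over 8 tumors take these values as independent. For this reason results are also given for the 8 first arrays alone.

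In the 8 tumors, 6 of the 34 genes differed from the pool: Ndrg1 and Pkm were higher, and Slc2a1, Pdk1, Bnip3 and Ddit4 were lower. That is 17.6% of the members, beside 17.2% called among all 20307 genes tested (6.68% higher and 10.5% lower), so the share of members called was close to the background. The median of the 34 mean ratios was -0.03, beside -0.02 over all genes tested. On the first arrays alone 7 members were called, 4 higher and 3 lower, beside a background of 21.6% (8.46% higher and 13.2% lower): Aldoa and Aldoc joined and Ddit4 left.

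**Figure D1:**
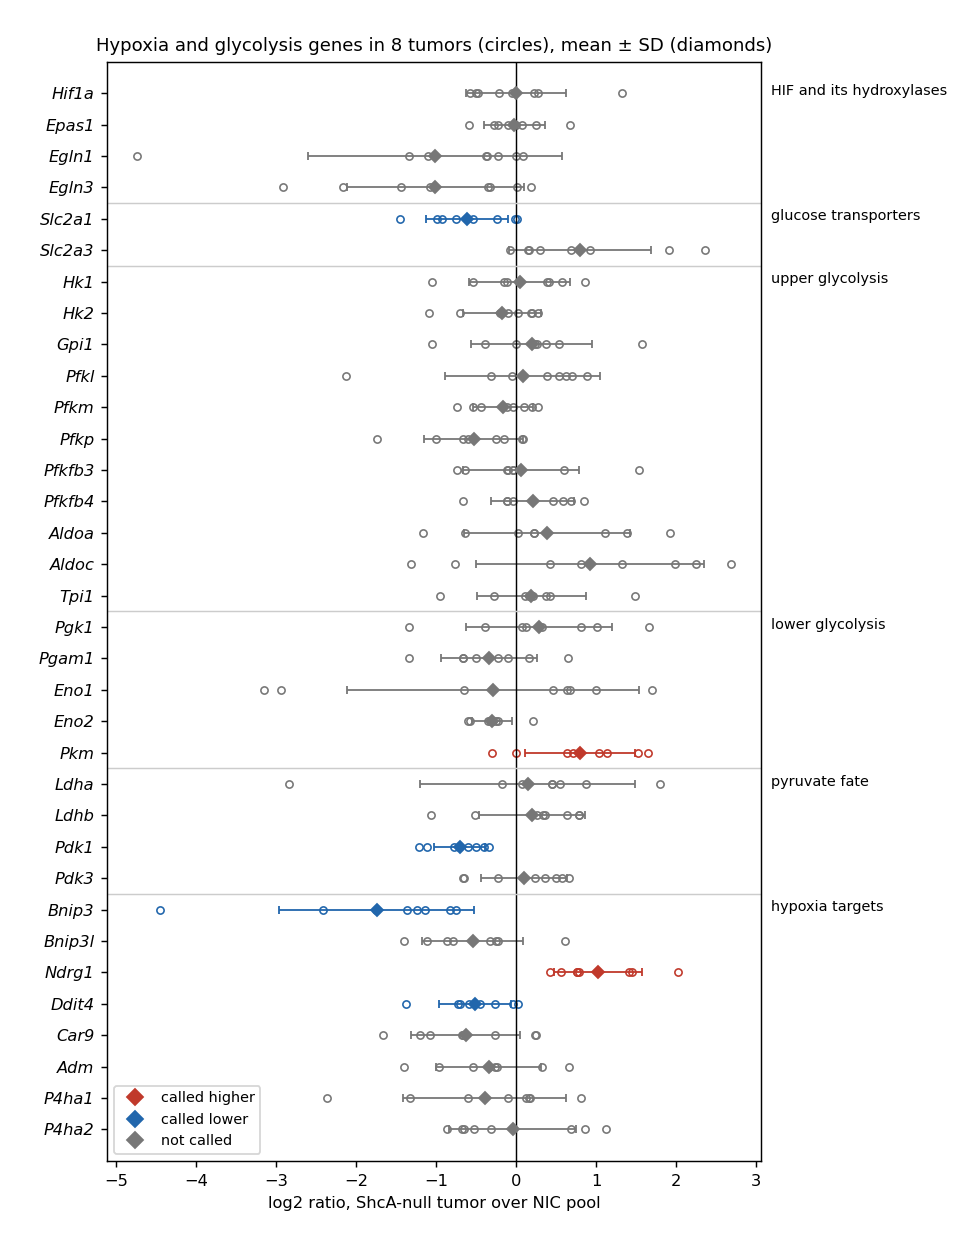
Mean log2 ratio of each of the 34 genes, tumors labelled ShcA-null over the NIC pool, in each of 8 tumors (circles) with the mean and SD (diamond and bar), grouped by role. Red marks genes called higher and blue genes called lower: the 8 tumors of Ndrg1 all lie above 0, and those of Pdk1 and Bnip3 all lie below it.

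The HIF alpha subunits and the oxygen-sensing hydroxylases held no called member (0 of 4). Hif1a, the alpha subunit found in most cells, had ratios of -0.57, -0.22, 0.22, -0.05, -0.48, 1.33, 0.28 and -0.50 in tumors 1 to 8. Its mean was 0.00 ± 0.63 (SD, n = 8; limma adjusted p = 0.996), with tumor 6 well above the other tumors. The arrays differed by orientation: Hif1a averaged -0.25 on the 8 first arrays, 2 of them above the pool. On the swapped arrays it averaged 0.35, with all 4 above the pool. HIF1A is controlled mainly by protein stability, which an RNA array does not measure.

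Epas1 encodes HIF2 alpha, which is prominent in endothelium. It read -0.27, 0.01, -0.10, -0.23, -0.59, 0.68, 0.25 and 0.07 in tumors 1 to 8, a mean of -0.02 ± 0.38 (SD, n = 8; limma adjusted p = 0.919). By tumor, both alpha subunits thus lay on either side of the pool, and tumor 6 had the highest ratio of each by these probes. A second Epas1 probe read lowest in tumors 6 and 7, at -1.60 and -1.70.

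Egln1 (PHD2), the main hydroxylase that marks HIF alpha in normal oxygen, had ratios of -1.10, -1.34, -0.38, 0.00, 0.09, -4.74, -0.23 and -0.36. It was below the pool in 7 of 8 tumors, but the mean of -1.01 ± 1.59 (SD, n = 8; limma adjusted p = 0.18) rested on tumor 6 and was -0.47 without it. Its second probe gave -3.33 in tumor 6 and also -3.59 in tumor 7, where the brightest probe gave -0.23.

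Egln3 (PHD3), a hydroxylase that is itself a HIF target, read 0.02, -2.91, -2.16, -0.35, 0.18, -0.32, -1.43 and -1.08. The mean was -1.01 ± 1.10 (SD, n = 8; limma adjusted p = 0.0714), and it was not called. The low means of tumors 2 and 3 came from 1 array each: the first array of tumor 3 gave -4.18 and the swapped array labelled tumor 2 gave -5.63, while the first array of tumor 2 gave -0.20 and the swapped one labelled tumor 3 gave -0.13. With the authors' deposited value table in place of the ratios used here, Egln3 was called (-1.25, limma adjusted p = 0.0197).

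The 2 glucose transporters went opposite ways in their means. Slc2a1 (GLUT1), the widely expressed basal transporter and a standard HIF target, had ratios of -0.53, -0.24, 0.01, -0.02, -0.93, -0.74, -1.44 and -0.99 in tumors 1 to 8. It was called lower, at -0.61 ± 0.51 (SD, n = 8; limma adjusted p = 0.0382; two-sided exact sign-flip p = 0.0156), which is 1.53-fold. Its probe lies on chromosome 4 at 118513698 to 118513757 in build mm7.

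The arrays split by orientation for Slc2a1. All 8 first arrays were below the pool, with slide means of -0.84 for tumors 1 to 4 and -1.03 for tumors 5 to 8, and all 4 swapped arrays were above it, with a mean of 0.45. Read on the first arrays only, it was -0.93 (limma adjusted p = 0.00127). In a fit with a term for dye orientation and best-matching pairs it was -0.26 (limma adjusted p = 0.256), and with median centring in place of loess it was -0.01 (limma adjusted p = 0.982). It was also no longer called without any one of tumors 1, 2, 5, 6, 7 or 8 (limma adjusted p from 0.0513 to 0.0909).

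Slc2a3 (GLUT3), the high-affinity transporter of neurons and leukocytes, had a mean of 0.80 ± 0.89 (SD, n = 8; limma adjusted p = 0.0775) and was not called. Its values ran from -0.07 to 2.36, and tumors 6 and 7 stood highest at 1.92 and 2.36. The mean of tumor 3, 0.93, averages 2.14 on its first array with -0.28 on a swapped array whose label is in doubt. T cell markers had their highest tumor median in tumor 7 (3.14, against 0.08 to 0.74 in the other tumors), with 0.59 in tumor 6. Neutrophil markers had theirs in tumor 8 (2.21), where Slc2a3 read 0.29. The part of other cell types in the Slc2a3 values was not tested. In RNA of whole tumors, a change in the number of cells of a type and a change in RNA per cell cannot be told apart.

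Upper glycolysis, from hexokinase to triose phosphate isomerase, held no called member of 11 on all arrays. The mean ratios ran from -0.53 for Pfkp, the platelet-type phosphofructokinase (limma adjusted p = 0.1), to 0.93 for Aldoc, the brain-type aldolase (limma adjusted p = 0.172). Other kept Pfkp probes averaged -1.16 and -0.70 (limma adjusted p = 0.0974 and 0.0764 over all probes). On the swapped arrays these averaged 0.04 and -1.04, against -0.64 for the brightest Pfkp probe. Probes of Hk1 disagreed: its brightest averaged 0.05, while a dimmer one averaged -1.34 (limma adjusted p = 0.0187 over all probes). The 3 other kept Hk1 probes read -2.59 to -3.52 in tumor 6 and -2.64 to -3.06 in tumor 7, and each was above the pool on 3 of 4 swapped arrays, where the brightest was below on all 4. In between the 2 extremes of the brightest probes lay the hexokinases Hk1 (0.05) and Hk2 (-0.18), the phosphofructokinases Pfkl (0.08) and Pfkm (-0.16), and Gpi1, which isomerises glucose 6-phosphate (0.19). Pfkfb3 (0.06) and Pfkfb4 (0.21), which set the level of the phosphofructokinase activator fructose 2,6-bisphosphate, were also near the pool, as were Tpi1 (0.19) and Aldoa, the muscle and ubiquitous aldolase (0.39).

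Lower glycolysis, from phosphoglycerate kinase to pyruvate kinase, held 1 called member of 5 tested. Pkm, the pyruvate kinase gene whose splicing gives the M1 and M2 enzymes, had ratios of 0.71, 0.64, 0.01, 1.04, 1.66, -0.29, 1.52 and 1.14 in tumors 1 to 8. It was called higher, at 0.80 ± 0.68 (SD, n = 8; limma adjusted p = 0.0349; two-sided exact sign-flip p = 0.0234), 1.74-fold, with 7 of 8 tumors above the pool. Its probe lies on chromosome 9 at 59705879 to 59705938 (mm7), and a second Pkm probe gave a similar mean of 0.76 (limma adjusted p = 0.011 over all probes). That second probe was above the pool on 3 of 4 swapped arrays (mean 0.24). Neither separates the splice forms here.

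Within slides Pkm read 1.47 for the first arrays of tumors 1 to 4, 1.00 for those of tumors 5 to 8 and -0.27 on the swapped slide, where all 4 arrays were below the pool. With a dye term and pairs by best match the mean was 0.43 (limma adjusted p = 0.543). The call was lost without any one of tumors 1, 2, 4, 5, 7 or 8 (limma adjusted p from 0.0608 to 0.0855).

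The other 4 tested enzymes of lower glycolysis were not called. Pgk1, which makes the first ATP of the pathway, averaged 0.29 and Pgam1, the mutase after it, -0.33. Eno2, the neuronal enolase, averaged -0.30 with a small spread (SD 0.25, limma adjusted p = 0.0792). A second Eno2 probe averaged -0.38 (limma adjusted p = 0.0395 over all probes). Both Eno2 probes were below the pool on all 4 swapped arrays and above it on 2 of 8 first arrays. Eno1, the ubiquitous enolase, had the widest spread of all members (-0.28 ± 1.82, SD, n = 8), with -3.15 and -2.94 in tumors 6 and 7 and -0.65 to 1.70 in the other six. The probes of Pgk1, Pgam1, Eno1, Bnip3 and Ndrg1 list further transcripts in the array design, so their values could include a related sequence.

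Gapdh had no probe under its own name, and 3 probes under provisional names relate to it. LOC14433, whose number is the gene identifier of Gapdh, had a mean of -0.38 ± 0.26 (SD, n = 8; limma adjusted p = 0.0474 over all probes). MGC68323 and LOC380687, which list the Gapdh transcript among others, averaged 0.34 and 0.61 and were not called. The 3 probes differ in sign, so no Gapdh value is taken from them.

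By their brightest probes, several glycolytic enzymes differed by the orientation of the dyes. Aldoa averaged 1.20 on the 8 first arrays and -1.96 on the 4 swapped arrays, Aldoc 1.67 and -1.69, and Pgk1 0.99 and -1.78. Gpi1 gave 0.84 and -1.59, and Tpi1 0.80 and -1.46. Each of these 5 was above the pool on 7 of 8 first arrays and below it on 4 of 4 swapped arrays. The array that departs among the first arrays was that of tumor 3 for each of them.

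Other probes of these genes did not all follow. A second probe of Aldoa (1.30 on first arrays, -1.92 on swapped ones) and of Pgk1 (0.67 and -0.998) did. The second probe of Aldoc averaged -0.35 and -0.05, with 3 of 4 swapped arrays above the pool, and that of Gpi1 -0.09 and -0.54, with 2 of 4 above.

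Counting slides by the brightest probes, 9 of the 16 enzymes (56.2%) were above the pool on both slides with tumor RNA in red and below it on the swapped slide, beside 14.7% of all genes. The dye term of a fit of all 12 arrays as labelled was called for 7 of 16 enzymes (43.8%), beside 9.53% of all genes (limma, adjusted p under 0.05). With each swapped array paired to its best match, 14 of 16 (87.5%) had a called dye term, beside 63.3% of all genes. These pairs were chosen by correlation over the same data, so both shares depend on that choice. The weakest matches had r = 0.392 and 0.44. The swapped arrays are 1 slide, so the effect of that slide and of the dyes cannot be told apart.

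**Figure D2:**
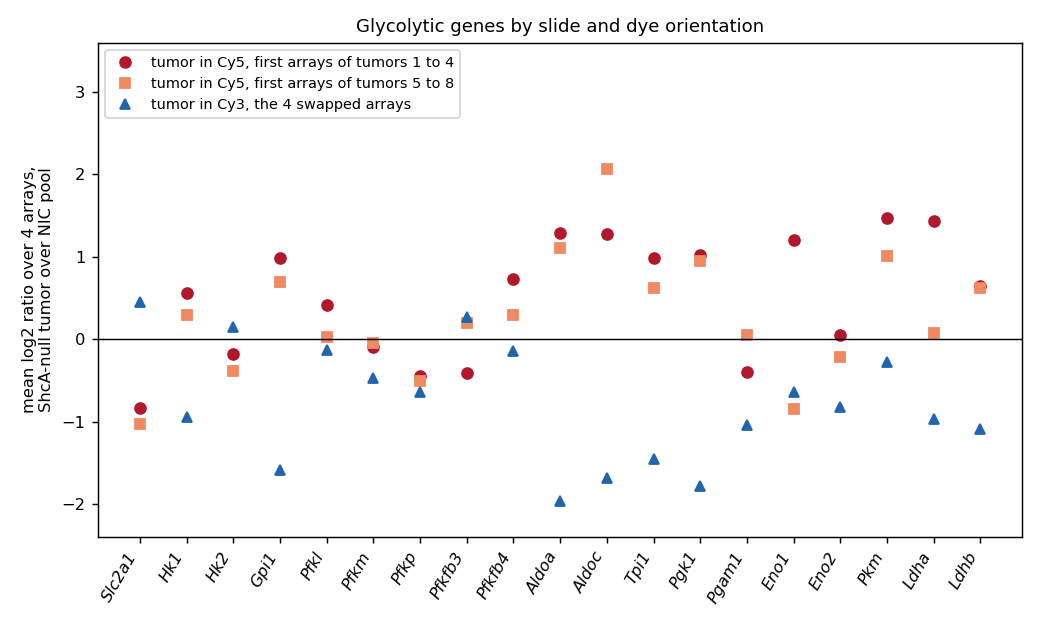
Mean log2 ratio, tumors labelled ShcA-null over the NIC pool, of Slc2a1, the 16 glycolytic enzymes and 2 lactate dehydrogenases, over the 4 arrays of each slide; symbols give the slide and the dye that carried the tumor RNA. Aldoa, Aldoc, Gpi1, Tpi1, Pgk1, Pkm and Ldhb lie above 0 on both slides with tumor RNA in Cy5 and below it on the swapped slide, and Slc2a1 lies the other way round.

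Aldoa and Aldoc passed the test on the first arrays alone (limma adjusted p = 0.0152 and 0.0224), where the dye is not balanced. Among the first arrays, which share 1 orientation, tumors still differed: the median of the 16 enzymes was 1.27 in tumor 1, 1.25 in tumor 4, 0.74 in tumor 5 and 0.70 in tumor 2. It was 0.45 in tumor 7, 0.24 in tumor 8, -0.09 in tumor 6 and -0.68 in tumor 3. The first arrays span 2 slides, tumors 1 to 4 and tumors 5 to 8.

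At the fate of pyruvate, 1 of 4 members was called. Pdk1, a kinase that shuts off pyruvate dehydrogenase and so keeps pyruvate out of mitochondria under hypoxia, had ratios of -0.77, -1.21, -1.11, -0.50, -0.41, -0.33, -0.71 and -0.60 in tumors 1 to 8. It was called lower, at -0.70 ± 0.32 (SD, n = 8; limma adjusted p = 0.00587; two-sided exact sign-flip p = 0.00781, the smallest that 8 tumors allow), 1.63-fold. Every tumor was below the pool, which 9.49% of all genes also showed.

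Pdk1 was below the pool on 8 of 8 first arrays and on 4 of 4 swapped arrays, and its slide means were -1.18, -0.51 and -0.62. Leaving out any 1 tumor kept the call. It was lost with median centring (-0.25, limma adjusted p = 0.45) and with a dye term and pairs by best match (-0.58, limma adjusted p = 0.082). The probe lies on chromosome 2 at 71747473 to 71747532 (mm7), and a second, dimmer Pdk1 probe did not show the difference (-0.01, limma adjusted p = 0.974 over all probes).

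Pdk3, another kinase of the same family, averaged 0.10 and was not called. Its probes disagreed on the swapped arrays: the brightest was above the pool on all 4 (mean 0.81) and a second was below on all 4 (mean -0.54). That second probe averaged -0.28 over the 8 tumors. Ldha, the lactate dehydrogenase subunit that HIF raises, averaged 0.15 ± 1.34 (SD, n = 8; limma adjusted p = 0.826), with -2.84 in tumor 6 and -0.17 to 1.80 in the others. A second Ldha probe read 1.48 in tumor 6 and averaged 1.12 over 8 tumors (limma adjusted p = 0.0318 over all probes), so the 2 probes disagree in that tumor. On the swapped slide the representative probe averaged -0.98 and on the first arrays 0.75. Ldhb, the heart-type subunit, averaged 0.20 and followed the same orientation pattern, with 0.63 and -1.09.

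Among the 8 hypoxia targets outside glycolysis, 1 was called higher and 2 lower. Bnip3, a mitochondrial outer membrane protein that triggers mitophagy in hypoxia, had the largest mean of any member in either direction. It read -1.36, -2.41, -1.75, -0.74, -0.83, -4.45, -1.14 and -1.24 in tumors 1 to 8, a mean of -1.74 ± 1.22 (SD, n = 8; limma adjusted p = 0.0146; two-sided exact sign-flip p = 0.00781), 3.34-fold lower. All 8 tumors were below the pool, and tumor 6 was far below the rest; without tumor 6 the mean was -1.35 (limma adjusted p = 0.00355).

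Bnip3 was below the pool on 8 of 8 first arrays and 4 of 4 swapped arrays, with slide means of -1.92, -1.91 and -1.21. It remained called without any 1 tumor and with a dye term and pairs by best match (-1.60, limma adjusted p = 0.0331), and with median centring it was -1.07 (limma adjusted p = 0.0523). The probe lies on chromosome 7 at 135295711 to 135295770 (mm7). Bnip3l (NIX), its paralog, averaged -0.54 ± 0.63 (SD, n = 8; limma adjusted p = 0.0983), with 7 of 8 tumors below the pool; its second probe averaged -0.69 (limma adjusted p = 0.0185 over all probes).

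Ndrg1, a stress- and hypoxia-induced gene of differentiation, moved against Bnip3. Its ratios were 0.76, 1.45, 2.03, 1.41, 0.43, 0.79, 0.56 and 0.76 in tumors 1 to 8, all above the pool, as 4.88% of all genes were. The mean was 1.02 ± 0.55 (SD, n = 8; limma adjusted p = 0.00668; two-sided exact sign-flip p = 0.00781), 2.03-fold higher. It was above the pool on 8 of 8 first arrays and 4 of 4 swapped arrays, with slide means of 1.19, 0.63 and 1.63, and the call held without any 1 tumor, with median centring (1.56) and with a dye term and pairs by best match (1.12, limma adjusted p = 0.0106). The probe lies on chromosome 15 at 67013174 to 67013233 (mm7). Ndrg1 and Bnip3 were the 2 members called with a dye term and pairs by best match, beside a background of 8.16%.

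Ddit4 (REDD1), an inhibitor of mTORC1 under hypoxia and energy stress, read 0.03, -0.71, -0.45, -0.26, -0.03, -0.59, -1.37 and -0.72. It was called lower at -0.51 ± 0.45 (SD, n = 8; limma adjusted p = 0.048; two-sided exact sign-flip p = 0.0156), 1.43-fold, close to the threshold. The call was lost on the first arrays alone (-0.40, limma adjusted p = 0.152) and without any one of tumors 2, 3, 4, 6, 7 or 8 (limma adjusted p from 0.0621 to 0.104). With median centring its sign turned, to 0.22 (limma adjusted p = 0.506). The slide means were -0.13, -0.68 and -0.56, and the probe lies on chromosome 10 at 59467933 to 59467992 (mm7).

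Car9, the carbonic anhydrase that exports acid from hypoxic cells, is a standard marker of tumor hypoxia. It read 0.24, -1.67, -1.20, -0.26, 0.25, -1.07, -0.68 and -0.66 in tumors 1 to 8, a mean of -0.63 ± 0.68 (SD, n = 8; limma adjusted p = 0.0769), and was not called, with 6 of 8 tumors below the pool. As with Egln3, its lowest arrays were the first array of tumor 3 (-2.44) and the swapped array labelled tumor 2 (-3.27). Adm, the vasodilator adrenomedullin, averaged -0.34 (limma adjusted p = 0.286). P4ha1 and P4ha2, prolyl hydroxylases that mature collagen, averaged -0.39 and -0.04 with 4 and 5 of 8 tumors below the pool. On the swapped arrays the brightest P4ha1 probe was above the pool on 3 of 4 (mean 0.36), while a second was below on all 4 (mean -0.55). That second P4ha1 probe averaged -0.33 over the 8 tumors (limma adjusted p = 0.0731 over all probes).

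The promoters of the 4 members called lower are shown, since HIF is the known common regulator of these genes. The sequences are from RefSeq (GRCm38.p6) and run 5′ to 3′ on the strand of the gene, in windows of 300 bases around its annotated start; capitals mark the HIF core, ACGTG or GCGTG, read on either strand. They are Bnip3 at chr7:138909457-138909756 on the minus strand, Pdk1 at chr2:71872974-71873273 on the plus strand, Slc2a1 at chr4:119108495-119108794 on the plus strand and Ddit4 at chr10:59951721-59952020 on the minus strand.
Bnip3: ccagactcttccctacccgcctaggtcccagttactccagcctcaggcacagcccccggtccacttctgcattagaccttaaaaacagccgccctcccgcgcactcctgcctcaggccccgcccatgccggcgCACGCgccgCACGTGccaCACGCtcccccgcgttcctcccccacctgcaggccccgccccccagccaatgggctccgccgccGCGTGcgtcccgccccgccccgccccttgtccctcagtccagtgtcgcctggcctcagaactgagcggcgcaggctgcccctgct
Pdk1: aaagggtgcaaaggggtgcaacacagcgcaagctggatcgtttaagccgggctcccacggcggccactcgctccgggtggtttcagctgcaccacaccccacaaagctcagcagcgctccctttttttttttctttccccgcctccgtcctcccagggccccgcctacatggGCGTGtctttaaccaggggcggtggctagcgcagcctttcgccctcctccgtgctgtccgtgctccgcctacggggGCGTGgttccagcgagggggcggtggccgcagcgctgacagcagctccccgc
Slc2a1: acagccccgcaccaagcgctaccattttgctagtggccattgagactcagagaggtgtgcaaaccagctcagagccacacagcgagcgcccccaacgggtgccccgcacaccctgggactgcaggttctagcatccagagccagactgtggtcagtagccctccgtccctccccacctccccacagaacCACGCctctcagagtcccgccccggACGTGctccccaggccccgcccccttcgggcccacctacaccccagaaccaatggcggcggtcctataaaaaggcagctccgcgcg
Ddit4: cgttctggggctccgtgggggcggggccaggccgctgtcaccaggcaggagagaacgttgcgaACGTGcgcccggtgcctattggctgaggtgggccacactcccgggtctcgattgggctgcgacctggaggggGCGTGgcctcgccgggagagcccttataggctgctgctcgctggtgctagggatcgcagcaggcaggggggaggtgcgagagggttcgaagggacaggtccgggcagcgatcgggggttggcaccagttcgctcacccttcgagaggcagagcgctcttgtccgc

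The window of Bnip3 holds the core at 5 positions, 2 of them within a single CACGTG, which reads ACGTG on both strands and so counts once on each. Those of Pdk1, Slc2a1 and Ddit4 hold it at 2 positions each, and a second annotated start of Pdk1 has none. Over 32851 promoter windows of the same length, 43.8% held at least 1 core. Of the members, 31 had a window in the table, and 28 of them held it in at least 1 window (36 of 44 windows, 81.8%). The members were picked for their known link to HIF, so this share is a description of the list. Epas1, Slc2a3, Ndrg1 and Bnip3l had no entry. Pkm, called higher, has 2 windows, of which 1 holds the core at 2 positions. A match describes letters in the window and not a site in these tumors.

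**Figure D3:**
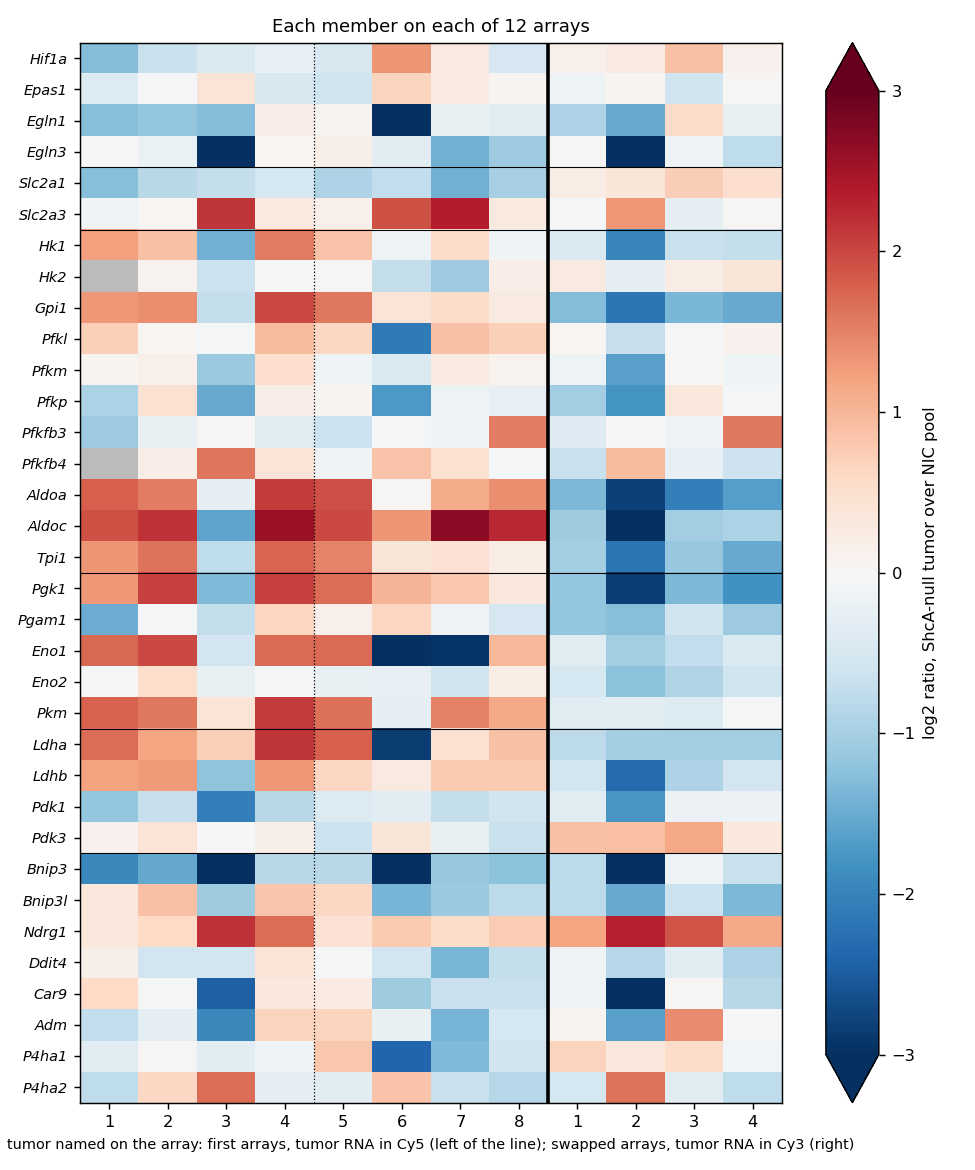
Log2 ratio of tumor labelled ShcA-null over NIC pool for each of the 34 genes (down) on each of 12 arrays (across), first arrays left of the solid line and swapped arrays right of it, the dotted line parting the slides of tumors 1 to 4 and 5 to 8; grey marks a spot left out. Aldoa, Gpi1, Tpi1 and Pgk1 are red on 7 of 8 first arrays and blue on all 4 swapped arrays, which several other enzymes are not, while Ndrg1 is on the red side and Pdk1 and Bnip3 on the blue side of 0 on all 12 arrays.

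Tumors differed in how far the members departed from the pool. Tumor 5 had the highest ratio of the 8 tumors for 14 of the 34 genes, and 8 of its genes were over 2-fold above the pool and 0 over 2-fold below it. Tumor 6 had the lowest ratio for 9 genes, with 9 over 2-fold below and 4 over 2-fold above. Tumors 3 and 7 had 10 and 9 genes over 2-fold below. In tumors 5 to 8 these values come from 1 array each, with tumor RNA in red, and in tumors 1 to 4 from both orientations. On the first arrays alone, the members' median was highest in tumor 4 (0.40), with 0.18 in tumor 2 and 0.17 in tumor 5. The same counts per tumor were not made over all genes.

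The first array of tumor 3 and the swapped array labelled tumor 2, which match each other best, stood apart. Beside the low Egln3 and Car9, they gave -3.38 and -3.28 for Bnip3, -2.04 and -1.74 for Pdk1, and 2.16 and 2.32 for Ndrg1. The median of the 8 hypoxia targets was -0.81 and -1.18 on these arrays, but also -0.83 and -1.13 on the first arrays of tumors 6 and 7. That of the 16 glycolytic enzymes was -0.68 on the first array of tumor 3 and -1.46 on the swapped array labelled tumor 2, the lowest of either orientation. On these same 2 arrays the median of 7 fibroblast markers (Col1a1, Col1a2, Col3a1, Dcn, Lum, Pdgfra, Pdgfrb) was 3.62 and 2.87, against -1.43 to 0.62 on the other 10. Macrophage markers read 1.83 and 1.64, against -0.31 to 0.53 elsewhere. Skeletal muscle markers read 3.87 and 2.44, but also 2.10 on the first array of tumor 2. Neutrophil markers read 2.29 and 1.99, and as high on the first array of tumor 8 (2.21) and the swapped array labelled tumor 4 (2.45). The part of these cells in the member values was not tested.

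**Figure D4:**
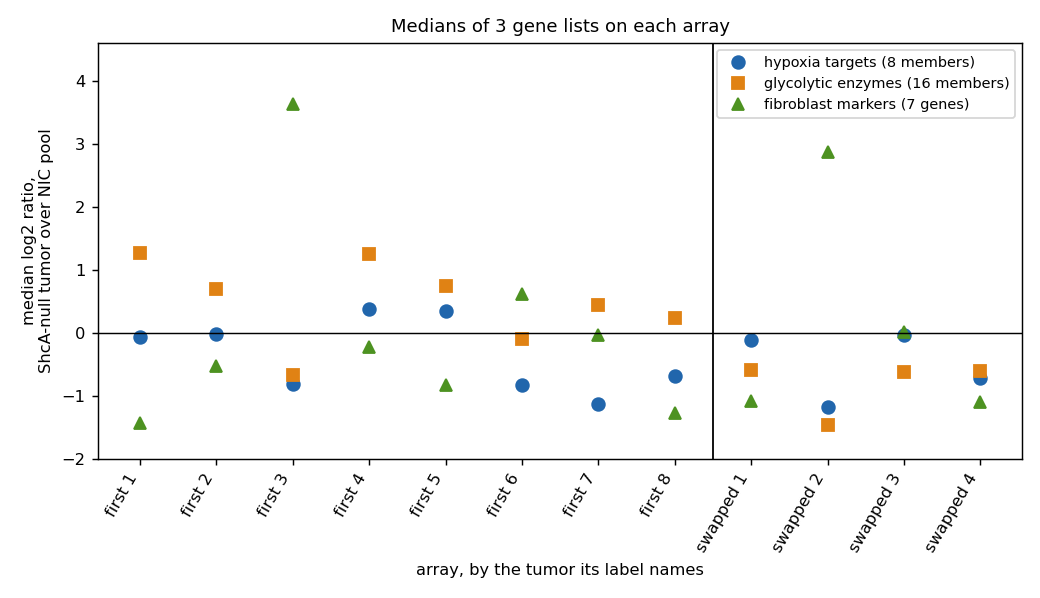
Median log2 ratio, tumor labelled ShcA-null over NIC pool, of the 8 hypoxia targets, the 16 glycolytic enzymes and 7 fibroblast markers on each array, named by its labelled tumor. Fibroblast markers stand at 3.62 on the first array of tumor 3 and at 2.87 on the swapped array labelled tumor 2, where glycolytic enzymes have their lowest medians.

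Over all tumors, 0 of 7 fibroblast and 0 of 7 macrophage markers were called (limma). Krt8 and Epcam were called higher (2 of 8 luminal markers), as were S100a8 and Retnlg (2 of 5 neutrophil markers), Lck (1 of 8 T cell markers) and Mylpf (1 of 7 muscle markers). Epcam was close to the threshold (limma adjusted p = 0.0497). The median of the 8 luminal markers split by orientation. It was above the pool on every first array (0.19 to 1.38) and below it on every swapped array (-0.26 to -0.06). Alas2 (an erythroid marker) and the endothelial receptor Flt1 (1 of 7 endothelial markers) were called lower. Cd3e was also called lower (-0.996), but it was measured in 4 tumors, on their swapped arrays. Their part in the member values was not tested.

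Other genes of the same pathways, taken from lists that do not overlap the 35, gave 13 calls in 86 tested, 4 higher and 9 lower, again beside 17.2% over all genes. Among 14 further regulators of HIF, Arnt, the constant partner subunit, was lower (-0.41 ± 0.25, SD, n = 8; limma adjusted p = 0.0269), below the pool in 8 of 8 tumors. Vhl averaged -0.04 and Hif1an, the asparaginyl hydroxylase that blocks HIF activity, -0.52, neither called.

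Of 30 further HIF targets, 4 were lower and 1 higher, with a median of -0.25. Hmox1, which degrades heme, was lowest (-1.42 ± 0.32, SD, n = 8; limma adjusted p = 0.000344) and below the pool in 8 of 8 tumors. Ak4, a mitochondrial adenylate kinase, was lower too (-1.22, limma adjusted p = 0.00782), as were Ppp1r3c and Gbe1 of glycogen synthesis (-0.95 and -0.88). Stc2, a secreted glycoprotein, was higher (0.57, limma adjusted p = 0.0364). Vegfa, the vascular growth factor most often read as a hypoxia response, averaged -0.32 ± 0.55 (SD, n = 8; limma adjusted p = 0.247), below the pool in 6 of 8 tumors.

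Among 16 other genes of glycolysis and glucose entry, the transporter Slc2a12 was lower (-1.08 ± 0.50, SD, n = 8; limma adjusted p = 0.00407), as were Bpgm and Pgm1 (-0.38 and -0.34), and the leukocyte hexokinase Hk3 was higher (0.47). Of 14 genes of lactate and pyruvate handling, 1 was called: Slc16a1 (MCT1), a lactate and pyruvate carrier, was higher (1.28 ± 0.72, SD, n = 8; limma adjusted p = 0.00687) and above the pool in 8 of 8 tumors. Slc16a3 (MCT4), the lactate exporter that HIF raises, averaged -0.18 (limma adjusted p = 0.421). Of 12 genes of the pentose phosphate route and gluconeogenesis, Taldo1 was higher (0.41) and H6pd lower (-0.57).

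The scaling of the arrays bears on every direction above. With each array centred on its median in place of loess, the median of all genes moved to 0.16, against -0.02 with loess, and 71.3% of calls were higher, against 38.8%. The members' median then stood at 0.35, which is 0.19 above that of all genes. Under that scaling 2 members were called, beside a background of 16.5%, both higher: Ndrg1 and Pkm. With the authors' deposited values 8 members were called, beside 19.8%, and with a dye term as labelled 7, beside 22.3%. Taken slide by slide, 1 member was called on the first arrays of tumors 1 to 4 (4.7% of all genes), 1 on those of tumors 5 to 8 (1.47%) and 9 on the swapped slide (8.16%).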

How the data were processed

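Per the labels, total RNA of 8 tumors and of the NIC pool was amplified once and hybridised to 12 two-colour Agilent arrays, 4 of them dye-swapped. Per the file headers, Agilent Feature Extraction (version 9.5.3.1) read the spots, and probe coordinates are in mm7. The deposited intensities (mean foreground, median background) are not normalized. The log10 ratio, per the file headers, is red over green of background-subtracted, dye-normalized signals. The deposited flags, other values of 0 or 1, mark spots above background, saturated or outlying.

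The authors also deposited a log2 value table, which the choice of members names for their values. Its slope on the scanner ratio was 0.758 to 0.797 on first arrays and -0.748 to -0.715 on swapped ones, so it already runs tumor over pool. Its column medians were 0, 0.00575, -0.0715, -0.00668, -0.0252, 0.137, 0.115 and 0.000792 for first arrays 1 to 8, and -0.0124, -0.0508, -0.00659 and -0.00298 for swapped arrays 1 to 4. Its scale and centring are not given in the sources used here, so it served as an alternative.

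Ratios used here came from normexp (offset 50) and loess in limma 3.58.1 (R 4.3.3, data.table version 1.17.8). Spots flagged as outliers were left out (0.47% to 13.7% of an array), spots of a probe and arrays of a tumor were averaged, and a gene was tested where either RNA was well above background in at least 4 tumors. Of 41174 gene probes, 22951 were named by accession, 6659 by symbol and 3109 by an older symbol through RefSeq (GRCm38.p6), and 8455 kept the file's name. Each gene took its brightest probe. Tests were lmFit and eBayes, and exact sign-flip permutation tests. Only the limma test was tried on simulated data, which held independent values without dye, slide or shared-tumor effects. Alternatives covered background, normalization, filters, probes, dyes, slides and tumors.

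Per-tumor values are given in full for called members and for Hif1a, Epas1, Egln1, Egln3, Slc2a1 and Car9. Other pathway genes are named where called (at most 6 of a list), with Vegfa and Slc16a3. Vhl, Hif1an and the called marker genes were named after their values were seen. The result of 1 marker gene is not reported here. The members and lists were chosen with earlier results of these data known. The files had 0 unused columns of other samples.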

Additional observations from a re-analysis of the deposited data

Results flagged for a closer look

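In 6 of the 34 genes, 1 tumor stood apart from the other seven, its gap to the nearest tumor exceeding the share 0.526 of the whole range; chance alone gives such a gap in about 1 of 20 genes. Of these 6, 5 concern tumor 6, which has 1 array, with tumor RNA in red. For tumor RNA that array had the lowest share of probes above background (63.1%) and the lowest median signal (525) of the 12. The next lowest median signal was 532, on the array of tumor 7. Over 18724 genes with values in all 8 tumors, 16.3% had a tumor apart by the same measure and 12.4% had tumor 6 apart. Egln1 read -4.74 there, with the next tumor at -1.34, and Bnip3 read -4.45, with the next at -2.41. Ldha read -2.84 (next -0.17), Pfkl -2.12 (next -0.31) and Hif1a 1.33 (next 0.28). Other probes of the same genes read -3.33 for Egln1 and 1.48 for Ldha in tumor 6. The sixth is Eno2 in tumor 8, at 0.21 with the next tumor at -0.22. No cause was tested for any of them.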

How the results depend on the processing

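No paired analysis was possible because there is 1 group of tumors against 1 pool; the nearest fit, with the tumor as a replicate block and a dye term, called 7 members with pairs as labelled (correlation of a tumor's arrays -0.0378) and 2 with best-matching pairs (0.927). The count of called members, 6, became 2 with median centring, 1 on the slide of tumors 1 to 4, 1 on that of tumors 5 to 8 and 3 to 5 without 1 tumor, the lowest without tumor 2 or 7; it was 4 without tumors 6 and 7 and 5 to 9 under the remaining 12 alternatives. Leaving out those 2 tumors, and the swapped arrays labelled tumors 2, 3 and 4 (7 called), was chosen after seeing the data. The count over all genes, 3497, was 1642 with best-matching pairs, 939 and 296 on the slides of first arrays, 1653 on the swapped slide and 1946 to 4501 without 1 tumor. The count of other pathway genes, 13, was 20 on first arrays, 5 with best-matching pairs, 4 and 1 on the slides of first arrays, 6 to 20 without 1 tumor and 20 without tumors 6 and 7. The members' median, -0.03, was 0.35 with median centring, -0.59 on the swapped slide and -0.10 to 0.01 without 1 tumor. Of 34 members in 25 alternatives each, 8 values turned sign with a call on either side: on the swapped slide Slc2a1 (0.45), Gpi1 (-1.59), Aldoa (-1.96), Tpi1 (-1.46), Pgk1 (-1.78), Pkm (-0.27) and Ldha (-0.98), and with median centring Ddit4 (0.22). Turns of sign with no call on either side were not counted. The call held in 23 of 25 alternatives for Ndrg1, 21 for Bnip3, 20 for Pdk1, 13 for Pkm, 12 for Slc2a1 and 7 for Ddit4. Causes were not tested. All representative probes were well above background, and the number of arrays limits the precision.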
